A study of Mus musculus with 12 samples.

Results

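The 8 long noncoding RNA genes of mouse liver described here are Gm43305, Gm42031, Gm4316, BC024386, Neat1, Malat1, Kcnq1ot1 and Meg3. They were picked by symbol as the abundant or nuclear long noncoding RNAs of these livers, and all 8 were found among the 49398 genes of the deposited gene table, which holds 9903 genes that GENCODE vM21 types as long noncoding. Of those, 4636 had at least 1 read. Because the choice used their measured abundance, the levels below are a description and are not tested. Earlier results of these data were also known when the 8 genes were chosen.

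Long noncoding RNAs are transcripts that are not translated, and many stay in the nucleus. Neat1 is the scaffold of paraspeckles, nuclear bodies built on its long form by proteins such as Sfpq and Nono, while its short form ends early at an ordinary polyadenylation signal. Malat1 gathers at nuclear speckles, the stores of splicing factors, and it shares with long Neat1 an unusual end in which an A-rich tract folds into a triple helix in place of a poly(A) tail. Kcnq1ot1 is read from the paternal copy of an intron of Kcnq1, antisense to it, and silences neighbouring imprinted genes. Meg3 is the maternally expressed RNA of the Dlk1-Dio3 imprinted domain.

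The livers came from wild-type C57BL/6J mice of both sexes, 9 months old, that received AIN-93G chow with 0% (CTRL), 1% (VLC1) or 5% (VLC5) by weight of an oil rich in VLCPUFA, polyunsaturated fatty acids of very long chain. Feeding lasted 8 weeks and a fast of 5 hours preceded collection. Each diet has 4 livers, 2 from females and 2 from males: the controls were N979 and N980 (female) with N967 and N968 (male), the 1% livers N983 and N984 (female) with N971 and N972 (male), and the 5% livers N987 and N988 (female) with N975 and N976 (male). Each library is a different animal, and the 12 libraries held 5291385 to 15674130 estimated reads. The series text speaks of 6 samples per diet, and the 12 labelled libraries were analysed here.

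A set of 4 libraries stood apart in RNA composition. Transcripts that GENCODE types as retained-intron, summed over protein-coding genes, took 4.69% of the reads of control N979, 4.46% and 4.38% of 1% livers N983 and N984, and 4.64% of 5% liver N988, against 1.92% to 3.17% in the other 8 livers. All 4 are female, and the other 2 females, N980 and N987, had 2.35% and 2.11%. Hepatocyte genes were high in every liver (Alb at 67291 to 131300 CPM), where CPM is a gene's count scaled so that every library has the same total. The 9 hepatocyte markers found were tested and none passed the threshold in any diet comparison. In whole liver, fewer cells of a type and less RNA per cell cannot be told apart.

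The ends of Neat1 and Malat1 are shown because the library kit selects poly(A) RNA, so how a form ends bears on whether it is caught. They are read 5′ to 3′ from GENCODE vM21 transcripts on GRCm38, written as DNA, all on the minus strand of chromosome 19. In capitals is AATAAA, the polyadenylation signal, or AAAAAGCAAAA, the A-rich tract. The short Neat1 form ends at chr19:5842307-5842426 and the long form at chr19:5824708-5824827. The Malat1 transcript ends at chr19:5795690-5795809, and its A-rich tract lies in chr19:5795982-5796101, 292 bases before that end.
Neat1 short: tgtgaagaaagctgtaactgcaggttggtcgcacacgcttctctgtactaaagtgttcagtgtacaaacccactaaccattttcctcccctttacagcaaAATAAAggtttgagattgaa
Neat1 long: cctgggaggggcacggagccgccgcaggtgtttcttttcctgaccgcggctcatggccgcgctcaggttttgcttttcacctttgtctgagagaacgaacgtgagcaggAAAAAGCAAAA
Malat1 annotated end: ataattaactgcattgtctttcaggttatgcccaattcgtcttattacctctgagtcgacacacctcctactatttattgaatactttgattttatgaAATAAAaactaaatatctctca
Malat1 A-rich tract: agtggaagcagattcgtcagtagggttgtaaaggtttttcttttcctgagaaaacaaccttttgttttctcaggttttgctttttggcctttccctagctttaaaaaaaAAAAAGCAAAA

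Of 133082 transcripts, 29.85% held AATAAA in their last 120 bases and 0.0511% held AAAAAGCAAAA, searched on the transcript's own strand. The annotated long Neat1 ended exactly on its A-rich tract, while the annotated Malat1 ran on past its own to an AATAAA. A match is a match of letters and not a measured end.

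The sequence of BC024386, on chromosome 7, is shown because most of its reads fell on transcripts that keep introns. The first intron of its spliced transcript, 229 bases long, is in capitals between 20 bases of exon on either side, from GENCODE vM21 on GRCm38, plus strand, chr7:140906117-140906385.
BC024386 first intron: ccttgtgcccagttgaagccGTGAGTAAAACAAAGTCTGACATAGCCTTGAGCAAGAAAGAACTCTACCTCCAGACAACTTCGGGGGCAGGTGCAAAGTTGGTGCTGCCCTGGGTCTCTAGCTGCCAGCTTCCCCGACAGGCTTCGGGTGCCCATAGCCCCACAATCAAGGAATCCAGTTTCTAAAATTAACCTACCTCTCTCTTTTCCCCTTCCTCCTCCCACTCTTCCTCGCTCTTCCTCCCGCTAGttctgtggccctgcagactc

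By mean CPM over the 12 livers, 6 of the 8 genes were among the 11 highest long noncoding genes: Gm43305 ranked 1 at 1929 CPM, Neat1 3 at 384, BC024386 6 at 287, Gm42031 7 at 215, Gm4316 8 at 209 and Malat1 11 at 150 CPM. Kcnq1ot1 ranked 212 at 4.34 CPM and Meg3 864 at 0.507 CPM, so the word abundant does not hold for them. Together the 8 genes took 0.0938% to 0.900% of a liver's reads and 14.4% to 47.1% of its long noncoding reads. Per kilobase of its main transcript, Gm43305 averaged 393 CPM, Gm42031 114, BC024386 111, Neat1 108, Gm4316 79.8, Malat1 21.3, Kcnq1ot1 0.0467 and Meg3 0.0141 CPM. On this per-length scale Gm43305 stayed at the top, and the next 3 genes lay close together with wide overlap between livers.

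**Figure D1:**
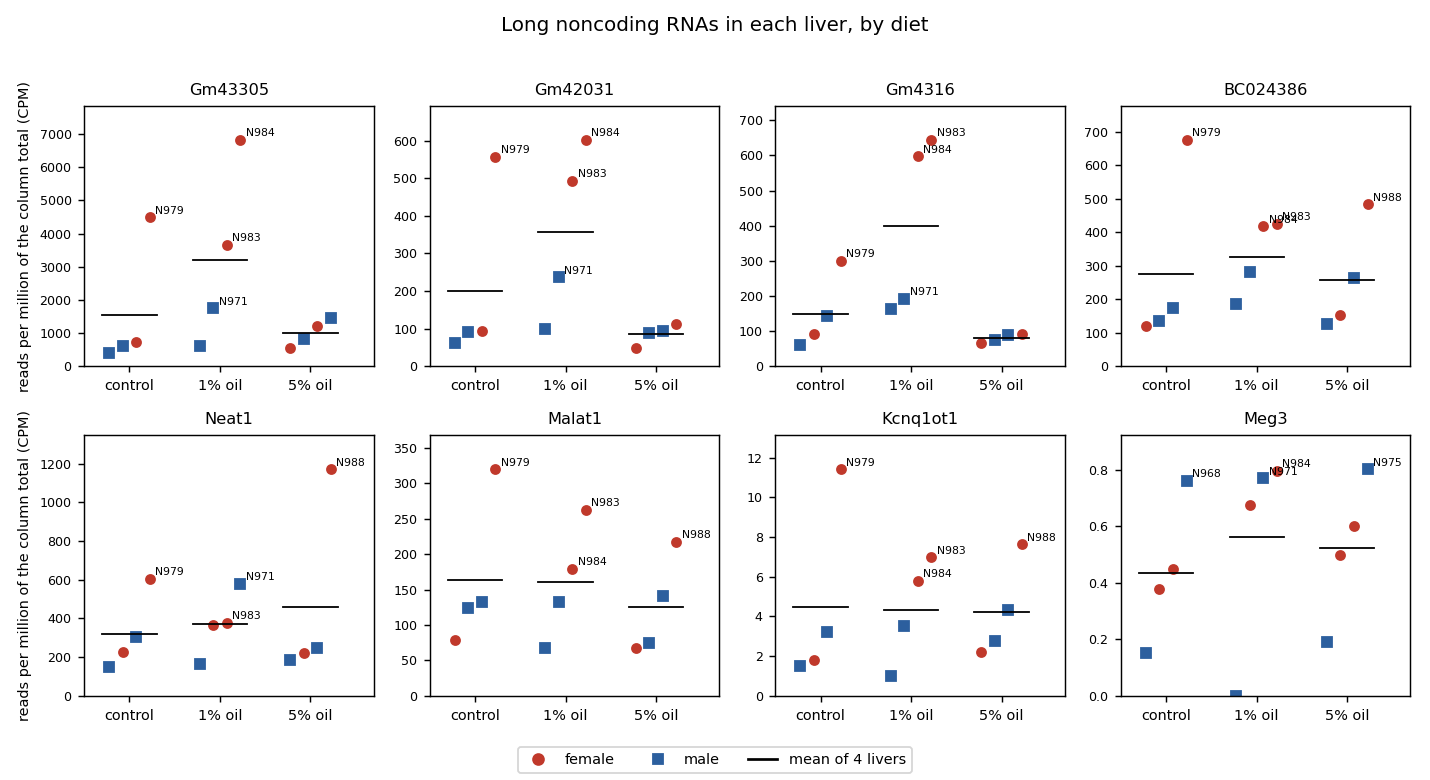
CPM of the column total of each of the 8 genes in each liver, by diet, on linear axes that start at 0. Circles are females, squares are males, bars are means of 4 livers, and the 4 highest livers are named. N979, N983 and N984 are the livers most often at the top, as in Malat1 at 320, 263 and 179 CPM, and Neat1 peaks in N988 at 1171 CPM.

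**Figure D2:**
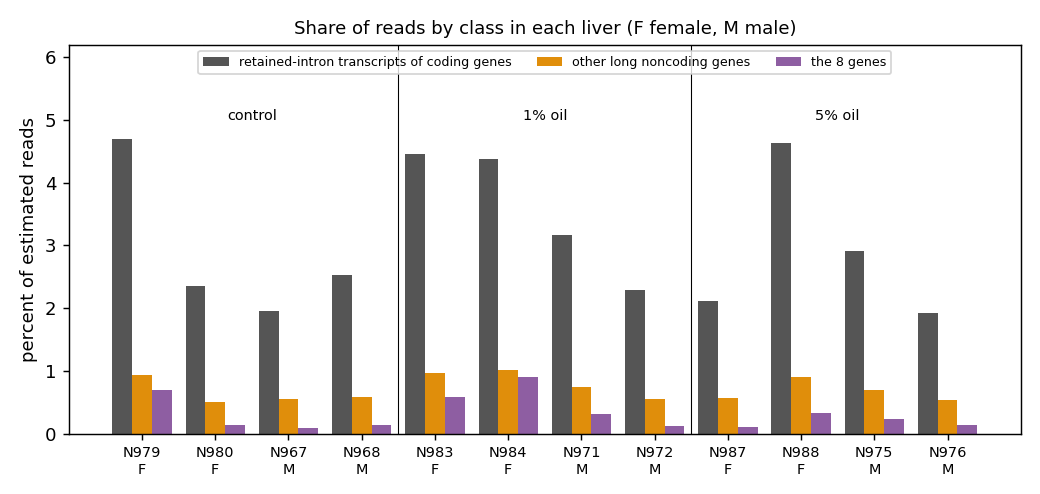
Percent of each liver's estimated reads in retained-intron transcripts of coding genes, in long noncoding genes other than the 8, and in the 8 genes. The first class reaches 4.38% to 4.69% in N979, N983, N984 and N988, and the 8 genes peak at 0.900% in N984.

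Gm43305, Gm42031 and Gm4316, on chromosomes 14, 8 and 8, share sequence. Of the 31-base words of the Gm42031 transcript 25.9% occurred in no other gene, 61.8% were shared with Gm43305 and 19.9% with Gm4316. Of the Gm43305 words 79.1% were its own, and of the Gm4316 words 52.4%. Other genes also shared words, some on the opposite strand. There Miga1 held 30.2% of the Gm4316 words, its largest share with any gene. Cnbd2 and Cep85 held 28.8% and 23.9% of the Gm42031 words, also on the opposite strand. Whether the counting used strand is not stated, so their reads may be mixed with those of Gm4316 and Gm42031. The part of such reads in the values of Gm4316 and Gm42031 was not tested. The longest identical run was 184 bases between Gm43305 and Gm42031, 140 bases between Gm43305 and Gm4316, and 102 bases between Gm42031 and Gm4316. In the RefSeq promoter windows (GRCm38.p6, 250 bases before to 50 after the start), Gm43305 and Gm42031 were identical at 294 of 300 bases, 98%. Every other pair among the 7 genes with a window had 22.7% to 29.3% identical bases when laid side by side without gaps. Reads that fit several of these genes were shared out by estimation, so their single values are uncertain.

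Gm43305 had 4495 (N979), 725 (N980), 394 (N967) and 627 (N968) CPM in control livers, 3656 (N983), 6832 (N984), 1745 (N971) and 627 (N972) in 1% livers, and 551 (N987), 1205 (N988), 1467 (N975) and 819 (N976) in 5% livers. The 2 females of the 1% diet and control N979 were highest, and the diets overlapped. Of its reads 99.97% were assigned to a transcript of 4901 bases that is itself typed retained-intron.

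Gm42031 had 557 (N979), 93.7 (N980), 60.9 (N967) and 90.3 (N968) CPM in control livers, 493 (N983), 602 (N984), 237 (N971) and 100.4 (N972) in 1% livers, and 48.7 (N987), 113 (N988), 94.1 (N975) and 89.0 (N976) in 5% livers. The same 3 livers were highest, and N988 of the 5% diet was not with them. The ratio of Gm43305 to Gm42031 stayed between 6.25 and 15.6 over the 12 livers, a spread far narrower than that of either gene. Reads that fit both genes were shared out by estimation, and the part of this in the narrow ratio was not tested.

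Gm4316 had 300.3 (N979), 91.7 (N980), 60.1 (N967) and 143 (N968) CPM in control livers, 645 (N983), 598 (N984), 192 (N971) and 162 (N972) in 1% livers, and 65.6 (N987), 93.2 (N988), 88.8 (N975) and 73.4 (N976) in 5% livers. All 4 livers of the 1% diet lay above all 4 of the 5% diet, and the control livers overlapped both. N988, one of the libraries that stood apart, lay only slightly above the other 5% livers in Gm4316.

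BC024386 had 676 (N979), 120 (N980), 136 (N967) and 174 (N968) CPM in control livers, 426 (N983), 418 (N984), 282 (N971) and 185 (N972) in 1% livers, and 154 (N987), 484 (N988), 263 (N975) and 125 (N976) in 5% livers. The 4 highest livers were those 4 with the highest retained-intron share. Its annotated transcripts are 2 of retained-intron type, of 1593 and 1626 bases, and 4 others of 688 to 851 bases.

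The transcripts of BC024386 that keep introns held 66.5% to 89.6% of its reads. They reached 595 CPM in control N979 and 81.5, 106 and 133 CPM in the other controls, 371, 361, 236 and 135 CPM in the 1% livers N983, N984, N971 and N972, and 102, 433, 231 and 90.3 CPM in the 5% livers N987, N988, N975 and N976. The other transcripts of BC024386 ran from 29.6 to 81.5 CPM. The intron-keeping reads thus spanned 7.30-fold from lowest to highest liver and the other reads 2.75-fold, so most of the spread of this gene lay in the intron-keeping forms.

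Neat1 had 604 (N979), 225 (N980), 150.2 (N967) and 302 (N968) CPM in control livers, 378 (N983), 368 (N984), 579 (N971) and 166 (N972) in 1% livers, and 224 (N987), 1171 (N988), 249 (N975) and 187 (N976) in 5% livers. One 5% female, N988, stood alone at the top, and the diets overlapped. Malat1 was not at its highest in that liver, and the ratio of Neat1 to Malat1 ran from 1.13 in N967 to 5.37 in N988.

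The short Neat1 transcript has 3004 bases and the long one 20771, which runs 17599 bases past the short end. Reads of the shared first part were divided between them by estimation. The long form took 22.3% of the Neat1 reads in control N979, 20.3% and 19.4% in 1% females N983 and N984, and 20.6% in 5% male N975. N988, which had the most Neat1, had 10.1%, among the lowest of the 12 (10.04% to 22.3%). Per kilobase, the long form was at 5.72 CPM and the short form at 348 CPM in N988, and at 6.48 and 155 CPM in N979.

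**Figure D3:**
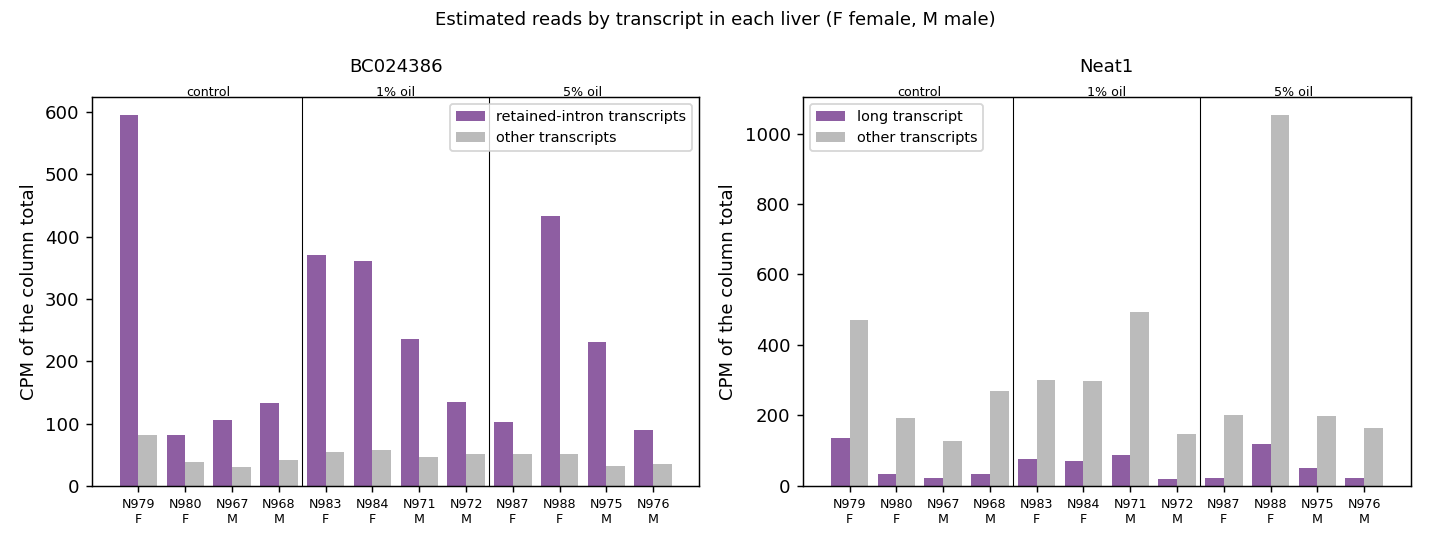
Left, CPM of the BC024386 transcripts that keep introns and of its other transcripts in each liver. Right, CPM of the long Neat1 transcript and of its other transcripts. The intron-keeping bars range from 81.5 to 595 CPM while the other BC024386 bars stay between 29.6 and 81.5, and the N988 peak of Neat1 lies in the shorter transcripts at 1052 CPM.

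Malat1 had 320 (N979), 78.3 (N980), 133 (N967) and 124 (N968) CPM in control livers, 263 (N983), 179 (N984), 132 (N971) and 67.7 (N972) in 1% livers, and 67.7 (N987), 218 (N988), 141 (N975) and 74.2 (N976) in 5% livers. Its 4 highest livers were the 4 of high retained-intron share, and the diets overlapped throughout. Of its reads 99.1% were assigned to the transcript of 6983 bases.

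Kcnq1ot1 had 11.4 (N979), 1.79 (N980), 3.20 (N967) and 1.52 (N968) CPM in control livers, 6.99 (N983), 5.81 (N984), 3.498 (N971) and 0.996 (N972) in 1% livers, and 2.23 (N987), 7.62 (N988), 4.34 (N975) and 2.74 (N976) in 5% livers. These rest on 11.1 to 91.4 estimated reads, so the exact Poisson 95% interval was 8.71 to 14.7 CPM in N979 and 0.499 to 1.78 CPM in N972, counting error only. The same 4 livers were highest. Its annotated transcript is antisense to Kcnq1, and whether the counting used strand is not stated, so reads of the 2 genes may be mixed.

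Meg3 had 0 to 9 reads per liver: 0.378, 0.449, 0.152 and 0.763 CPM in control livers N979, N980, N967 and N968, 0.678, 0.797, 0.771 and 0 CPM in 1% livers N983, N984, N971 and N972, and 0.601, 0.501, 0.803 and 0.191 CPM in 5% livers N987, N988, N975 and N976. The 0 in N972 allows up to 0.27 CPM (3 reads). Meg3 did not pass the filter on low counts and entered no test, since so few reads could not show a difference.

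The members' spread over livers was wide for their level. The 6 with a mean of at least 10 CPM had a coefficient of variation of 54.3% to 105%, above 92.8% to 99.0% of all genes of at least 10 CPM. In the fit, the biological coefficient of variation was 0.413 to 0.659 for the 7 genes tested, against a common value of 0.2662 over all genes.

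The 5% diet against control asks whether the larger dose of oil changed these RNAs. None of the 7 tested genes was called by edgeR's quasi-likelihood test with Benjamini-Hochberg adjustment over 13814 genes, beside 2.46% of all genes (1.19% of all genes higher and 1.27% lower). None of the 7 had livers of the 2 diets that did not overlap, beside 7.48% of all genes. Neat1 averaged 458 ± 476 CPM in 5% livers and 321 ± 199 in control livers (SD, n = 4 each), with a log2 fold change of 0.25 ± 0.57 (SE; adjusted p = 0.913). Malat1 averaged 125 ± 70.1 CPM in 5% livers and 164 ± 107 in control livers, with a log2 fold change of -0.49 ± 0.43 (adjusted p = 0.694). Without N979 the control livers averaged 112 ± 29.3 CPM of Malat1 (n = 3), below the 5% livers, and the fitted value was -0.15, while it was -0.22 without N987 and -0.78 without N975.

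Gm4316 averaged 80.3 ± 12.9 CPM in 5% livers and 149 ± 107 in control livers, at -0.89 ± 0.43 (adjusted p = 0.375). Gm42031 was at -0.90 ± 0.62, with an adjusted p of 0.583, and at -0.17 without N979 and -0.47 without N987. Gm4316 was at -0.60 without N979 and -0.56 without N968. Gm43305 (-0.13 ± 0.75), BC024386 (-0.13 ± 0.47) and Kcnq1ot1 (-0.02 ± 0.57) lay near 0 with adjusted p of 0.950 to 0.995. The 95% intervals of these 3 reached from -1.80 to 1.54, -1.17 to 0.90 and -1.26 to 1.23, so a fold change inside these bounds could not be told from 0. Single livers turned these directions. Without N988 the fitted Neat1 value was -0.56. Gm43305 was at 0.59 without N979, 0.36 without N987 and 0.20 without N988, BC024386 was at 0.48 without N979, 0.14 without N987 and 0.011 without N976, and Kcnq1ot1 was at 0.64 without N979, 0.35 without N987, 0.082 without N967, 0.0081 without N976 and 0.0056 without N971. With N979, N983, N984 and N988 all left out, the 7 values ran from -0.57 (Gm4316) to 0.47 (Gm43305), and none was called.

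For the 1% diet against control, again none of the 7 was called, beside 0.224% of all genes, and none was without overlap between the diets (3.79% of all genes). Gm4316 averaged 399 ± 258 CPM in 1% livers and 149 ± 107 in control livers, a log2 fold change of 1.24 ± 0.43 (adjusted p = 0.304). Gm43305 averaged 3215 ± 2716 CPM in 1% livers and 1560 ± 1961 in control livers, at 1.04 ± 0.71 (adjusted p = 0.623), and Gm42031 was at 0.86 ± 0.59 (adjusted p = 0.625). BC024386, Neat1, Malat1 and Kcnq1ot1 lay between -0.14 and 0.28.

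Without control liver N979 alone, Gm43305 was at 2.01, Gm42031 at 1.75, Gm4316 at 1.60 and BC024386 at 0.90, with adjusted p of 0.125 to 0.275. Gm43305 was at 0.61 without N984, and BC024386 at 0.027 without N980. Without N979 and N988, Gm43305 was at 1.95, Gm42031 at 1.74, Gm4316 at 1.57 and BC024386 at 1.00, with adjusted p of 0.139 to 0.209. With the 2 high 1% females N983 and N984 left out as well, the same 4 genes were at 0.83, 0.84, 0.69 and 0.52, and no gene of the 7 was called under any of these choices.

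For the 5% against the 1% diet, Gm4316 was lower in the 5% livers. It averaged 80.3 ± 12.9 CPM in 5% livers and 399 ± 258 CPM in 1% livers (SD, n = 4 each), a log2 fold change of -2.13 ± 0.45 with an adjusted p of 0.0447 by edgeR's quasi-likelihood test. It was 1 of 7 tested genes called, where 1.33% of all genes were called and 0.471% were called lower. It was also the gene of the 7 whose livers did not overlap, lower in the 5% livers, beside 8.9% of all genes without overlap and 2.01% without overlap and lower. Since the genes were chosen with earlier results of these data known, 1 of 7 beside these shares is a description. The call is no independent evidence of a diet difference.

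That call lay close to the threshold and depended on single livers and on the sex term. Of 24 alternative fits 13 kept it, among them DESeq2, limma voom and the other scalings, and 11 lost it. The adjusted p was 0.0991 with no sex term, and leaving out 1 liver at a time gave 0.0233 to 0.165, past the threshold without N975, N979, N980 or N967 and not past it without any of the other 8. The log2 fold change was -2.37 with no sex term and stayed between -1.86 and -2.35 with 1 liver left out, and it was -1.26 (adjusted p = 0.213) with N979, N983, N984 and N988 left out.

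Markers of sinusoidal endothelium, the vessel lining of liver, summed over all 12 listed genes, none of them at 0, ran from 256 to 299 CPM in the 5% livers and from 292 to 472 CPM in the 1% livers. They were highest in N983 and N984, as Gm4316 was. This list was picked from several lists of cell markers, and none of its 12 genes was called in 5% against 1% livers. Retained-intron reads took 1.92% to 4.64% in 5% livers and 2.29% to 4.46% in 1% livers. The part of either in the Gm4316 difference was not tested.

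Of the other genes, Gm42031 averaged 86.2 ± 27.03 CPM in 5% livers and 358 ± 230 CPM in 1% livers, at -1.76 ± 0.62 (adjusted p = 0.183), and Gm43305 averaged 1011 ± 406 and 3215 ± 2716 CPM in 5% and 1% livers, at -1.17 ± 0.75 (adjusted p = 0.449). With 1 liver left out Gm43305 ran from -1.73 (without N975) to -0.69 (without N987), and it was at -0.36 with N979, N983, N984 and N988 left out, where Gm42031 was at -1.15. BC024386 was at -0.41 ± 0.47 and Malat1 at -0.35 ± 0.44, and without N987 they were at -0.15 and -0.056. Neat1 (-0.01 ± 0.58) and Kcnq1ot1 (0.03 ± 0.54) were near 0 with intervals of -1.29 to 1.26 and -1.15 to 1.21. The 3 diet comparisons share livers, so their values are not independent of each other.

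**Figure D4:**
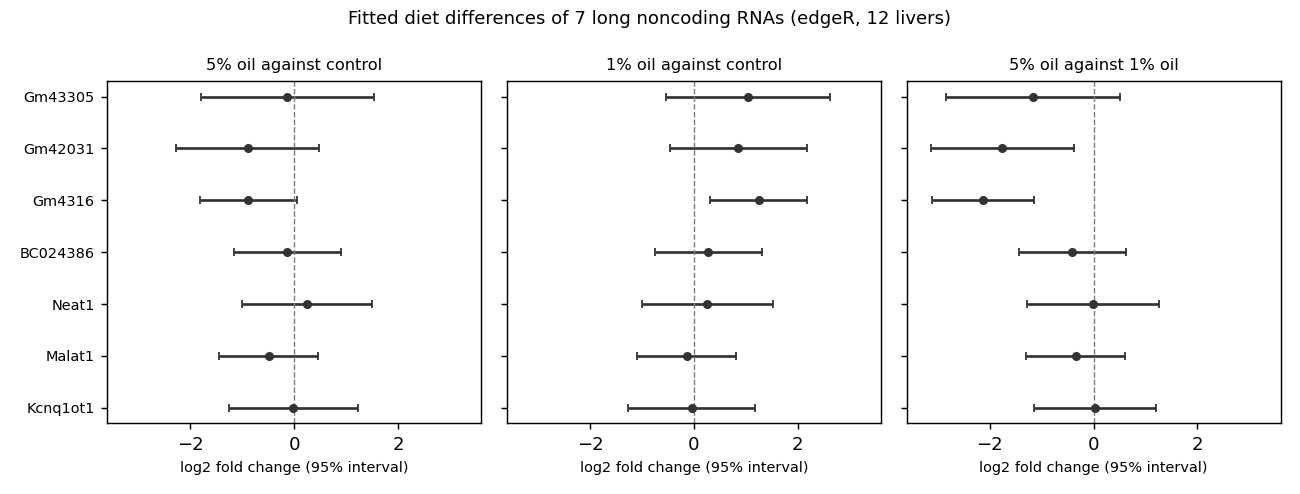
Fitted log2 fold changes of the 7 tested genes with 95% intervals, for 5% oil against control, 1% oil against control and 5% against 1% oil. Most intervals, which are not adjusted for the number of genes, include 0. In the last panel Gm4316 at -2.13 (-3.11 to -1.15) and Gm42031 at -1.76 (-3.14 to -0.38) do not. In the middle panel Gm4316 at 1.24 (0.31 to 2.18) does not. Only Gm4316 in the last panel was called.

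Between the sexes, all 7 genes had higher fitted levels in females, by 0.60 (Malat1) to 1.30 (Gm43305) on the log2 scale, and none was called, beside 8.94% of all genes. Gm43305 averaged 2910 ± 2518 CPM in females and 947 ± 535 CPM in males (SD, n = 6 each), with an adjusted p of 0.205. BC024386 averaged 380 ± 210 CPM in females and 194 ± 64.9 CPM in males, at 0.84 ± 0.39 (adjusted p = 0.178). Kcnq1ot1 averaged 5.97 ± 3.602 CPM in females and 2.71 ± 1.26 CPM in males, at 1.00 ± 0.46 (adjusted p = 0.171). The females include all 4 livers of high retained-intron share, while N980 and N987 had 120 and 154 CPM of BC024386, inside the male range of 125 to 282 CPM or just below it.

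Whether a diet acted differently in females and males was tested in a fit with the 6 groups of diet and sex. In 5% against control, the female minus male difference of Gm43305 was -2.72 ± 1.10 (unadjusted p = 0.0351, adjusted p = 0.985) and that of Gm42031 was -2.27 ± 0.96 (unadjusted p = 0.0403). In females Gm43305 averaged 878 CPM on 5% oil and 2610 CPM on control, and in males 1143 CPM on 5% oil and 511 CPM on control (n = 2 each). The control female mean rests on N979 at 4495 CPM beside N980 at 725 CPM, so without N979 the mean of the 5% females is above the remaining control female, and the interaction was not refitted without it. Over all genes 0 were called by edgeR, beside 645 at an unadjusted p under 0.05 (4.67%). For 1% against control 0 were called, beside 517 (3.74%), and the 7 genes ran from -0.82 ± 1.09 (Neat1) to 0.90 ± 0.68 (Gm4316).

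The genes varied together over the livers to different degrees. The 12 livers differ in diet, sex, depth and composition, and the correlations given here were not adjusted for diet, sex or composition. Over these livers the correlation of log2(CPM + 0.5) was highest for Gm43305 with Gm42031 (Pearson r = 0.953, Spearman rho = 0.888), genes that share sequence. Gm42031 with Gm4316, which also share sequence, had r = 0.934 (rho = 0.909), Malat1 with Kcnq1ot1 0.898 (rho = 0.902) and Malat1 with BC024386 0.888 (rho = 0.797). Without the 2 livers farthest from the median these were 0.904, 0.925, 0.822 and 0.808. Neat1 with Gm4316 had the lowest r of the 21 pairs, 0.370, with rho = 0.650 and r = 0.660 without N988 and N979, so the low value rested on those livers. Neat1 and Malat1, neighbours on chromosome 19, had r = 0.707 (rho = 0.720). These are descriptions of 12 livers with no test.

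**Figure D5:**
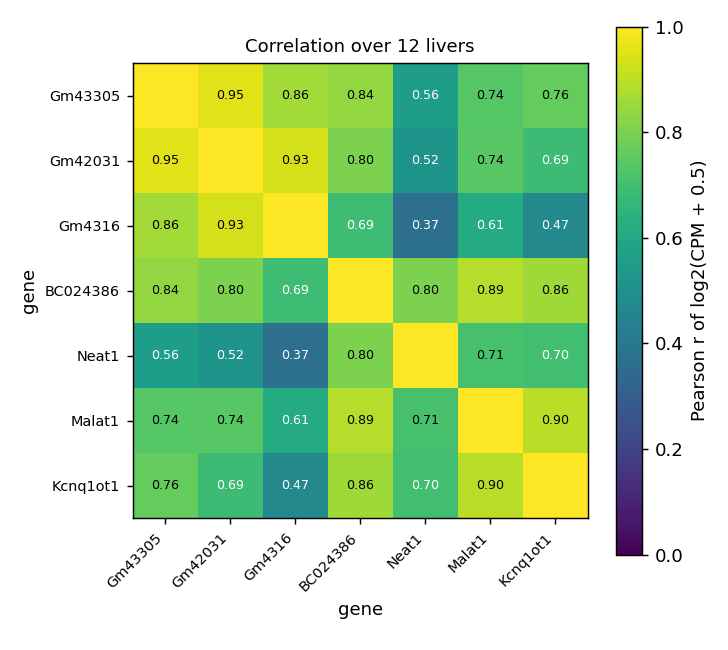
Pearson r of log2(CPM + 0.5) over 12 livers for each pair of the 7 genes with enough reads. The brightest cells include those among Gm43305, Gm42031 and Gm4316 (0.862 to 0.953) and among Malat1, Kcnq1ot1 and BC024386 (0.857 to 0.898), and the darkest is Neat1 with Gm4316 at 0.370.

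Among 12436 genes with a mean of at least 1 CPM, the 3 most like each member over the 12 livers were found by Pearson r. For Gm43305 they were Gm48275 (0.985), Gm46223 (0.967) and the zinc finger gene Zfp592 (0.964). For Gm42031 they were AI506816 (0.984), Gm37102 (0.958) and Zranb1 (0.958), and for Gm4316 AC102496.1 (0.950), AI506816 (0.940) and Rsph3b (0.939). AI506816 shares 20.5% of the 31-base words of Gm42031 and 8.70% of those of Gm4316, and AC102496.1 shares 13.99% of those of Gm4316, so the same reads may enter both sides.

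For BC024386 the most like genes were Fam193b (0.988), Gramd1a (0.984) and Tle2 (0.981). For Malat1 they were Nat10 (0.981), an RNA acetyltransferase, Adam33 (0.960) and Tubgcp3 (0.959). For Kcnq1ot1 they were Gripap1 (0.982), Sp110 (0.976) and Trp53bp1 (0.973), and for Neat1 Trp53 (0.931), the p53 gene, Vegfa (0.926), a growth factor of blood vessels, and Pigv (0.920). Without N988 and N979, the livers farthest from the median of Neat1, the Neat1 values were 0.830, 0.857 and 0.836. All these genes were picked as the highest of 12436 over 12 livers, so their high r is a description and no sign of a link.

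Many genes most like BC024386, Malat1 and Kcnq1ot1 themselves had a sizeable part of their reads on intron-keeping transcripts. That share of a gene's reads was 85.9% for Tubgcp3, 81.8% for Gramd1a, 68.4% for Adam33, 57.0% for Tle2, 55.4% for Nat10, 48.8% for Sp110 and 38.1% for Gripap1, beside a median of 0.249% over 11833 genes that are not long noncoding. Fam193b had 16.6% and Trp53bp1 2.04%. Among the genes most like Neat1, Trp53 and Pigv had 0% and Vegfa 21.2%. Trp53 itself had 42.8 CPM in N988, its highest liver, against 19.2 to 21.7 CPM in the other 5% livers.

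Proteins that build paraspeckles gave 24 tested genes. In 5% against control 1 was higher and 0 lower, beside 1.19% of all genes higher and 1.27% lower. The median log2 fold change was 0.08 over the list and 0.01 over all genes. The called gene was Rbm3, an RNA-binding protein induced by cold, at 0.97 ± 0.18 (adjusted p = 0.0130). Rbm14 was at 0.67 ± 0.18 (adjusted p = 0.0692), Sfpq at 0.53 ± 0.15 (0.0723) and Taf15 at -0.34 ± 0.15 (0.291). In the other 2 diet comparisons 0 of 24 were called.

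Of 34 nuclear speckle and splicing factors 0 were called in any of the 3 diet comparisons. Luc7l in 5% against control was at 0.52 ± 0.17 (adjusted p = 0.151), Srsf3 at 0.25 ± 0.15, Dyrk1a at -0.26 ± 0.16 and Srsf7 at 0.31 ± 0.22. Their summed level was 4246 CPM in N979, 4478 and 4221 CPM in N983 and N984 and 4382 CPM in N988, against 1876 to 3448 CPM in the other 8 livers. So the livers with the most Malat1 also had the most speckle factor RNA.

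Messenger RNAs known to be held in the nucleus of mouse liver were highest in the same livers. Mlxipl (the sugar-sensing factor ChREBP), Nlrp6, the glucagon receptor Gcgr and the amino acid transporter Slc7a2 summed to 1908 CPM in N979, 1493 and 1524 CPM in N983 and N984 and 1978 CPM in N988, against 640 to 1031 CPM in the other 8 livers. By diet, 0 of 4 were called. Slc7a2 in 5% against control was at -0.96 ± 0.30 (adjusted p = 0.125), Mlxipl at 0.38 ± 0.40, Nlrp6 at -0.30 ± 0.39 and Gcgr at 0.01 ± 0.27.

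Of 17 genes of nuclear RNA decay 0 were called in any of the 3 diet comparisons. The smallest p values in 5% against control were those of the exosome nuclease Dis3 (0.55 ± 0.19, adjusted p = 0.153) and of the exosome subunits Exosc9 (-0.43 ± 0.18), Exosc2 (0.34 ± 0.19) and Exosc1 (0.33 ± 0.20). Of 28 other known long noncoding RNAs, 1 was higher in 5% against control and 0 were lower, beside 1.19% and 1.27% of all genes. The median of the list was 0.11. The called gene was Snhg11, a host of small nucleolar RNAs, at 2.11 ± 0.48 (adjusted p = 0.0432). Airn, the imprinted antisense RNA of Igf2r, was at 1.12 ± 0.43, Snhg15 at 0.75 ± 0.31 and Gm15441 at 2.02 ± 0.91, with adjusted p of 0.225 to 0.324. In the other 2 comparisons 0 of 28 were called.

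Around the imprinted members, 7 other genes of the Kcnq1 domain were tested and 0 were called in any diet comparison. Osbpl5 in 5% against control was at 0.55 ± 0.29, Cd81 at -0.20 ± 0.13, Nap1l4 at 0.12 ± 0.13 and Tssc4 at 0.21 ± 0.25, with adjusted p of 0.412 to 0.785. Kcnq1, which overlaps Kcnq1ot1, was at -0.26 ± 0.54, and Cdkn1c, a cell cycle inhibitor that Kcnq1ot1 silences on the paternal copy, at 0.29 ± 0.41. In the Dlk1-Dio3 domain 0 of 7 genes passed the filter, and Rtl1, Dlk1 and Begain had 0 reads in all livers.

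The tested genes nearest to the members that are named here were not called in any diet comparison. Beside Gm4316, the sulfotransferase gene Sult5a1 was at -2.53 ± 0.57 in 5% against 1% livers (adjusted p = 0.0519) and at -2.27 ± 0.56 in 5% against control livers (adjusted p = 0.0553), and the dipeptidase gene Dpep1 at -0.92 ± 0.76 in 5% against 1%. Beside Neat1, Frmd8 was at 1.60 ± 0.39 in 5% against 1% livers (adjusted p = 0.0695). Beside BC024386, Psmd13 was at 0.42 ± 0.24 and Nlrp6 at -0.52 ± 0.39 in that comparison. Abhd4 and Oxa1l beside Gm43305, and Zfp791 and Vps35 beside Gm42031 lay between -0.12 and 0.57 there. The tested genes nearest to Meg3 were Wdr25, at 0.20 ± 0.31, and Gm34667, at -1.26 ± 0.44 (adjusted p = 0.163).

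Markers of other cells were set beside the members. No Kupffer cell, sinusoidal endothelial, stellate, cholangiocyte or lymphocyte marker was called in any diet comparison, and no mitochondrial gene. Of 5 erythroid markers 1 was lower in 5% against control, beside 1.27% of all genes. It was Alas2, at -1.17 ± 0.23 (adjusted p = 0.0168). None of 6 exocrine pancreas markers passed the filter, and Prss2 and Pnlip had 0 reads. The authors' deposited table of 261 genes holds 0 of the 8 long noncoding RNAs.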

How the data were processed

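Messenger RNA of 12 mouse livers was measured by stranded poly(A) libraries, per the labels' protocols, from RNA of integrity number above 7. The authors deposited estimated counts for 49398 genes and 141450 transcripts; kallisto, edgeR and limma are named in the submitters' processing notes with build GRCm39, without versions or roles. Of the gene values 11.66% were not whole. The authors' deposited CPM table (11339 genes, among them 7 of the 8 members) and their deposited table of log2 fold changes and p-values (261 genes) entered no test. Per the file headers, the second holds the output of their own test. Symbols matched 48845 IDs and 553 had none.

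Column totals gave CPM. Counts were rounded to whole numbers. Genes were kept by filterByExpr over the 6 groups of diet and sex, scaled by TMM and fitted by robust quasi-likelihood to diet plus sex, or to the 6 groups (edgeR 4.0.16 under R 4.3.3). P values are 2-sided, adjusted over 13814 genes at 0.05. The fits were tried on simulated data that gave all genes a single biological coefficient of variation, near the common value. Those of the tested members were higher, so the simulation does not show how well their differences are found. Levels are CPM of the column total and fold changes use TMM, so the 2 scales differ. Errors of fold changes are standard errors and hold the spread between animals; exact Poisson intervals cover counting error only. Transcript types come from GENCODE vM21 (GRCm38), not the authors' build, and 137473 transcript IDs matched with version. Coordinates of whole genes are not given for that reason.

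The 8 genes were named whatever their result. Each fixed list gave its counts and up to 4 genes by smallest p in 5% against control, plus called genes, and each gene its 3 most correlated genes and nearest tested neighbours, of which not all are reported here. The members and lists were chosen with earlier results of these data known. Replicate names are animal numbers that no diets share, so no block was fitted. Alternatives were other scalings, filters, DESeq2 1.42.0, limma 3.58.1 voom, no sex term, transcript sums, 2 diets only and leaving livers out.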

Additional observations from a re-analysis of the deposited data

Results flagged for a closer look

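In groups of 4 livers, a liver whose gap to its nearest neighbour, over the group's range, exceeded Dixon's 95% critical value was marked. Chance meets this rule in about 1 in 20 groups only where groups are independent and values normally distributed, which was not tested. Of 24 groups (8 genes by 3 diets) 6 were marked, Kcnq1ot1 only narrowly. The genes were measured in the same livers and several varied together, so the 24 groups are not independent. The number of marks is therefore a description and is not set against chance. Control liver N979 stood above the other controls in 4 genes, with 4494.6 CPM of Gm43305, 557.37 CPM of Gm42031, 676.38 CPM of BC024386 and 11.41 CPM of Kcnq1ot1. The 5% liver N988 stood above the other 5% livers with 1170.7 CPM of Neat1. The 1% liver N972 stood below the other 1% livers with 0.0 CPM of Meg3, where the others rest on 5 to 9 reads. N979 had the shallowest library (5291385 reads) and, with N988, the highest retained-intron shares (4.69% and 4.64%), and the part of these in the marked values was not tested.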

How the results depend on the processing

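The number of genes past the threshold depended strongly on the processing. It was 340 for 5% against control, 31 for 1% against control, 184 for 5% against 1%, and 1235 between females and males, the order kept below. With no filter it was 1011, 649, 1276 and 2375, and with DESeq2 742, 272, 697 and 2022. With no sex term it was 107, 10 and 8, and with only the 2 diets compared 201, 53 and 306. For 1% against control it was 50 with the stricter filter (50 reads in 4 livers) and 48 with limma voom. Leaving out 1 liver gave 138 to 479, 13 to 184, 13 to 597 and 594 to 2356. With N979 and N988 left out, chosen after seeing the data, it was 209, 371, 493 and 514. With N983 and N984 left out as well it was 42 for 5% against 1% and 156 for female against male. The female minus male difference of the 5% and 1% responses gave 0 calls, but 229 and 109 with no filter. The cause was not tested. Column totals in place of TMM shifted the median of all genes by 0.16 in 5% against control, with 317 calls higher and 111 lower (main 164 and 176). In 5% against 1% these were 213 and 54 with column totals, 81 and 76 with upper quartile factors, and 119 and 65 in the main fit. In 1% against control they were 23 and 8 with column totals, and 19 and 12 in the main fit.

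Of 501 refits of the 7 genes over the 3 diet comparisons, 433 kept direction and call, 50 turned direction and 0 of those were called. The Gm4316 call in 5% against 1% was lost in 11. With no filter, 7 further member results passed the threshold. All turns were in values not called. In 5% against control, leaving out 1 liver gave Gm43305 -0.68 to 0.59, Neat1 -0.56 to 0.53, Kcnq1ot1 -0.33 to 0.64 and BC024386 -0.43 to 0.48. Without N979 and N988 these were 0.71, -0.22, 0.40 and 0.17, and without all 4 livers 0.47, -0.23, 0.34 and 0.16. Kcnq1ot1 was at 0.11 with column totals, 0.016 with no filter and 0.10 with voom. In 1% against control, leaving out 1 liver gave Neat1 -0.35 to 0.53, Malat1 -0.41 to 0.22 and Kcnq1ot1 -0.38 to 0.66. Without N979 and N988 Malat1 was at 0.34 and Kcnq1ot1 at 0.74. Kcnq1ot1 was at 0.0043 with column totals and 0.31 with voom. In 5% against 1%, leaving out 1 liver gave Neat1 -0.74 to 0.55 and Kcnq1ot1 -0.25 to 0.39. Neat1 was at 0.062 with column totals and 0.18 with no sex term, Malat1 at 0.019 without the 4 livers, and Kcnq1ot1 at -0.031 with upper quartile factors, -0.21 with voom, -0.094 with no sex term and -0.34 without N979 and N988. Of 294 recomputed correlations 3 moved by more than their error, each with deviations from the diet mean. Kcnq1ot1 with Gm4316 went from 0.471 to 0.748, Kcnq1ot1 with Gm42031 from 0.685 to 0.890, and Gm43305 with Gm42031 from 0.953 to 0.981. That error was itself computed from the correlations with 1 liver left out. Those correlations, most of the 294, could therefore hardly exceed it, and their count is no sign of stability. The 45 mean levels of the genes per diet stayed within 1 SD. That SD is the spread between the livers of a diet, 16.1% to 126% of the mean, while the TMM factors ran from 0.889 to 1.14. The means could therefore hardly leave it, and their count is no sign of stability either. No paired analysis was possible because the replicate names are animal numbers that no groups share. Depth limits Meg3 and Kcnq1ot1 most.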

Other observations

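The long Neat1 form and the total of Neat1 were highest in different livers. The long form was at 135 CPM in control N979, 119 CPM in 5% liver N988 and 86.4 CPM in 1% liver N971, while the other Neat1 transcripts were at 470, 1052 and 493 CPM there. The split between them rests on estimated reads, and a poly(A) library may hold each form to a different extent, which was not tested.

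Among the 12 highest long noncoding genes, those outside the 8 were AC160336.1 at 1289 CPM, Xist at 338, AC102496.1 at 332, AC158975.2 at 207, Gm42047 at 154 and 2900097C17Rik at 126 CPM. AC102496.1, singled out after its values were seen, ran from 155 to 245 CPM in 5% livers and from 311 to 798 CPM in 1% livers, without overlap. Its control livers ran from 127 to 401 CPM and overlapped both. Of all genes, 8.9% were without overlap in 5% against 1%, and 2.01% were without overlap and lower. AC102496.1 shares words with Gm4316, so it is no separate sign of a diet difference.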
